A study of Mus musculus with 6 samples.

Results

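Interferon-induced genes and the transcription factors of the IRF and STAT families were compared between mouse embryonic fibroblasts (MEFs, connective-tissue cells grown out of embryos) with an Fbxw7 knockout and wild-type (WT) MEFs. Members were chosen by gene symbol alone: numbered symbols that begin with Ifi, Ifit, Ifitm, Isg, Gbp, Irf or Stat, together with Irgm1, Irgm2, Igtp, Mx1, Mx2, Bst2, Ddx58, Ifih1, Rsad2 and Zbp1, with the OAS genes set apart. The rule found 64 of the 53323 loci, which carried 70 member symbols. Of these loci 11 held several gene names, so that their value cannot be assigned to 1 gene. After the filter on low counts 58 member loci could be tested, and Gbp2b, Ifi214, Ifi44l, Ifitm6, Ifitm7 and Irf4 were below it.

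The series compared 3 libraries labelled Fbxw7 KO with 3 labelled WT by bulk sequencing of total RNA. Fbxw7 is the substrate-recognition subunit of an SCF ubiquitin ligase, which marks proteins such as MYC, cyclin E and NOTCH for degradation. Both genotypes grew in DMEM with 15% FBS and 1% NEAA, with no interferon or virus named in the labels. The labels gave no deleted exon, no driver of the deletion and no strain, sex, clone or embryo. Whether the 3 libraries per genotype were grown as separate cultures was not stated either, so the p-values rest on a spread between libraries that may be technical only.

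Interferons are secreted when cells sense viral nucleic acid. They bind receptors whose JAK kinases phosphorylate STAT proteins: type I interferon assembles a complex with STAT2 and IRF9 that binds the interferon-stimulated response element (ISRE) of target promoters, while the STAT pairs that follow interferon gamma bind the gamma-activated sequence (GAS). The induced genes encode antiviral proteins, sensors and, among them, IRF7, which amplifies the response; fibroblasts are known both to make interferon beta and to respond to it.

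Each library held 55720129 to 64198455 estimated fragments as deposited. Fbxw7 itself had 27.6, 27.4 and 24.1 CPM (the share of a TMM-scaled library, as edgeR's cpm gives it) in the knockout libraries and 29.5, 28.4 and 30.1 CPM in the WT libraries; this sums reads over the whole gene, so it does not check the labels, whose genotype is used throughout. Fibroblast markers were abundant in both genotypes, with a summed level of 31943 to 38664 CPM over 10 genes in the knockout and 29966 to 40276 CPM in WT. Of these 10 fibroblast genes 1 fell and 2 rose, against 8.08% lower and 8.03% higher of all tested loci. Their log2 fold changes ranged from -0.83 to 4.08. Without replicate 3 of both genotypes 4 fell and 5 rose, and with replicates 1 and 2 summed 0 and 0 (edgeR, 1 and 3 at an unadjusted p under 0.05). In these settings 20.6% and 1.11% of all loci were lower, and 20.7% and 1.57% higher. The summed level of 12 leukocyte markers was 19.8 to 20.8 CPM in the knockout and 23.5 to 25.8 CPM in WT, of which Lyz2 alone averaged 11.5 CPM in the knockout and 17.7 CPM in WT; Adgre1 and Tyrobp were at 0 in all 6 libraries. Lyz2 and Cd68 fell and Aif1 rose among the 5 leukocyte markers tested, and without knockout replicate 1, WT replicate 1 or WT replicate 2 0 of them fell (edgeR; 2 at an unadjusted p under 0.05). The summed level of 8 endothelial markers was 26.9 to 33.2 CPM in the knockout and 31.5 to 34.1 CPM in WT. Of the 4 tested, Kdr (log2 fold change -2.99) and Tek (-2.45) fell, and 1 fell without knockout replicate 1 or 2 or WT replicate 1 or 2. The summed level of 7 epithelial markers, 0 of which reached the test, was 0.118 to 0.206 CPM in the knockout and 0.294 to 0.622 CPM in WT. The part of these markers in the results was not tested. In bulk RNA, fewer cells of a type and less RNA per cell cannot be told apart. The Y-linked genes Ddx3y, Eif2s3y, Kdm5d and Uty were lower in the knockout (Ddx3y at 30.4 ± 6.01 CPM in the knockout and 95.9 ± 13.8 CPM in WT, SD, n = 3 each), so a difference in embryo or sex makeup cannot be told apart from the genotype in any result here. Replicate 3 of each genotype stood apart from the other two. The median scaled squared difference between replicates 1 and 2 was 5.85 times that of sampling noise in the knockout and 6.48 times in WT. Between replicate 3 and the other two this squared measure was 26.6 and 34.2 times noise in the knockout and 22.3 and 24.6 times in WT.

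The interferon-induced genes did not move as a block. Of the 58 tested loci, 8 fell in the knockout (13.8%, against 8.08% of all 16787 tested loci) and 6 rose (10.3%, against 8.03% of all tested loci), by edgeR's quasi-likelihood test with a Benjamini-Hochberg adjusted p under 0.05 over all loci. The loci that fell were Ifi27l2a, Irf7, Ifi44, Ifi202b, Ifi30, Ifih1, Stat6 and Stat5b. Those that rose were Ifi208, Ifitm1, the shared locus of Gbp6 and Gbp10, Ifi27, the shared locus of Ifitm2 and Ifitm5, and Mx2. Every knockout library was lower than every WT library at 20 loci (34.5%, against 18.4% of all tested loci), and above them at 13 loci (22.4%, against 19.2%). The median log2 fold change over the 58 loci was -0.06, beside 0.01 over all loci, and the median of its absolute size was 0.41, beside 0.26 over all loci.

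These counts changed when single libraries were left out, and so did the shares of all loci called. Leaving out knockout replicate 1 gave 3 lower and 1 higher (3.27% and 3.51% of all loci), and leaving out knockout replicate 2 gave 2 lower and 1 higher (4.35% and 4.151%). Leaving out WT replicate 1 gave 2 lower and 2 higher (3.89% and 3.67% of all loci). Leaving out WT replicate 2 gave 2 lower and 0 higher (3.76% and 3.63% of all loci; edgeR; 8 members higher at an unadjusted p under 0.05). Without replicate 3 of both genotypes 20 of 59 tested members were lower (33.9%, against 20.6% of all loci) and 15 higher (25.4%, against 20.7%), and all 14 calls named above were kept. Where replicates 1 and 2 were added up and counted as 1 library per genotype, 2 were lower and 0 higher (edgeR; 8 higher at an unadjusted p under 0.05), where 1.11% of all loci were lower and 1.57% higher. Scaling by library size alone gave 6 members lower and 8 higher, where 6.11% of all loci were lower and 11.7% higher. DESeq2 called 13 members lower and 8 higher (11.3% and 10.4% of all loci). Limma on the deposited FPKM called 7 lower and 1 higher of 51 members tested (7.39% and 4.46% of all loci). Calls of Ifi27l2a and Ifi202b were kept in all 19 alternative settings.

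**Figure D1:**
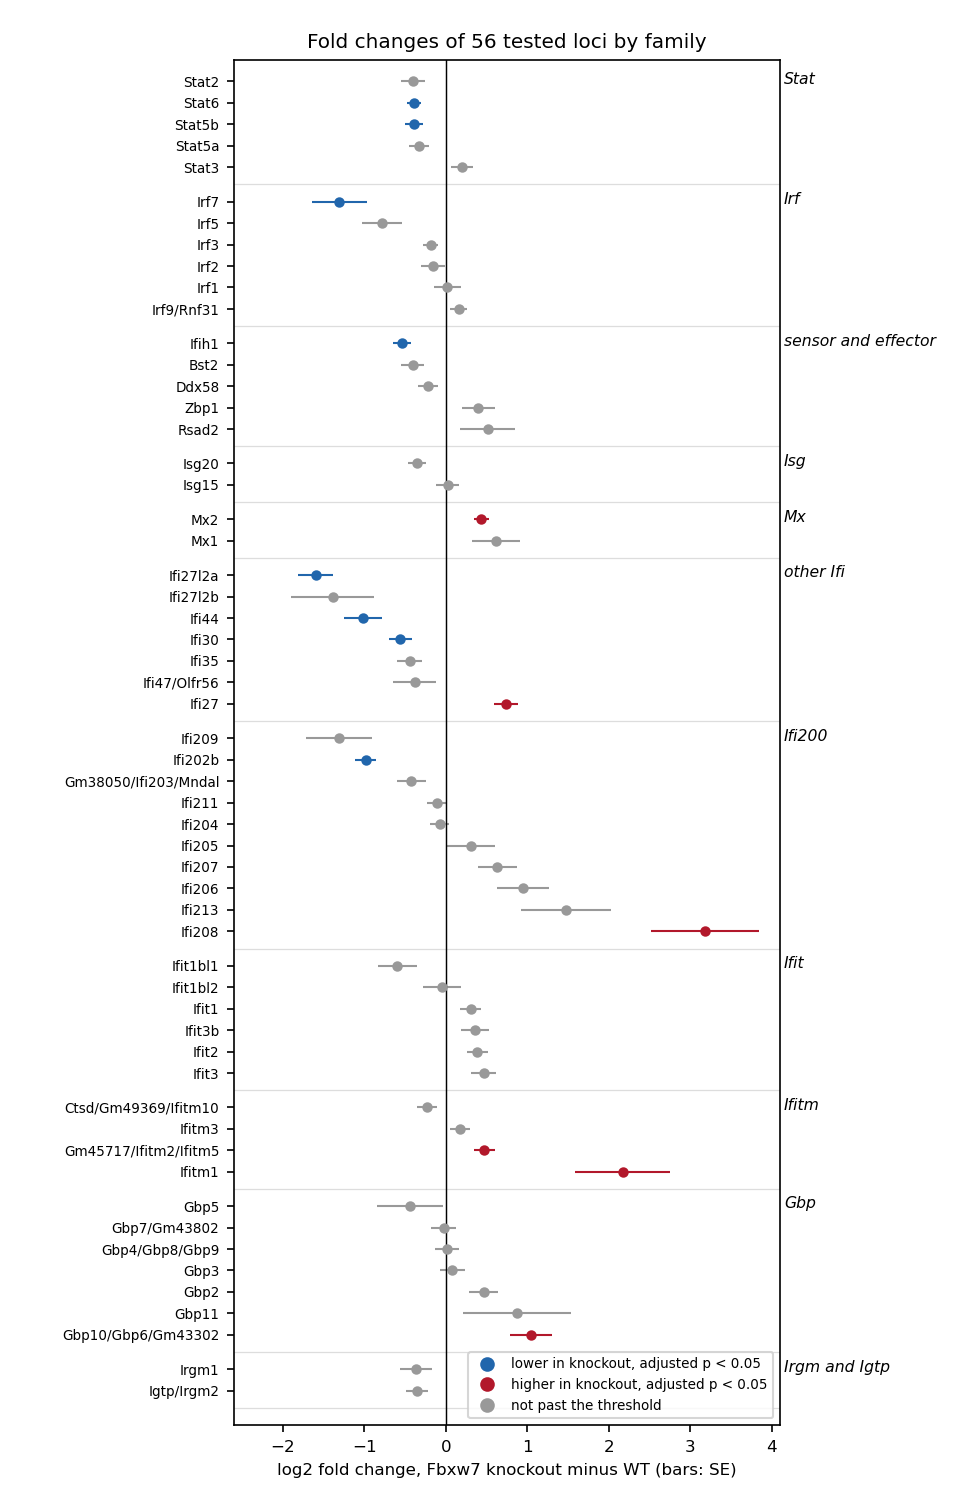
Log2 fold change (Fbxw7 knockout minus WT) of 56 of the 58 tested loci on the horizontal axis, ordered within families; points are estimates, bars standard errors, and colour marks the loci past an adjusted p of 0.05. Both directions occur within most families, and the 2 ends are Ifi27l2a at -1.60 and Ifi208 at 3.18.

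Replicate 3 of each genotype held less of these transcripts. On the log2(CPM + 0.5) scale, the median member was 0.29 lower in knockout replicate 3 than in the mean of the other two knockout libraries (a difference of -0.29), where the median over all loci was 0.00. In WT replicate 3 the same difference was -0.27, against -0.02 over all loci. Knockout replicate 3 had the lowest level of its genotype at 39 of the 58 members (67.2%, against 42.6% of all loci), and WT replicate 3 at 40 of 58 (69.0%, against 42.7%). Interferon-induced transcripts thus varied within each genotype along the same library number. The part of replicate 3 in the results was not tested beyond leaving it out.

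**Figure D2:**
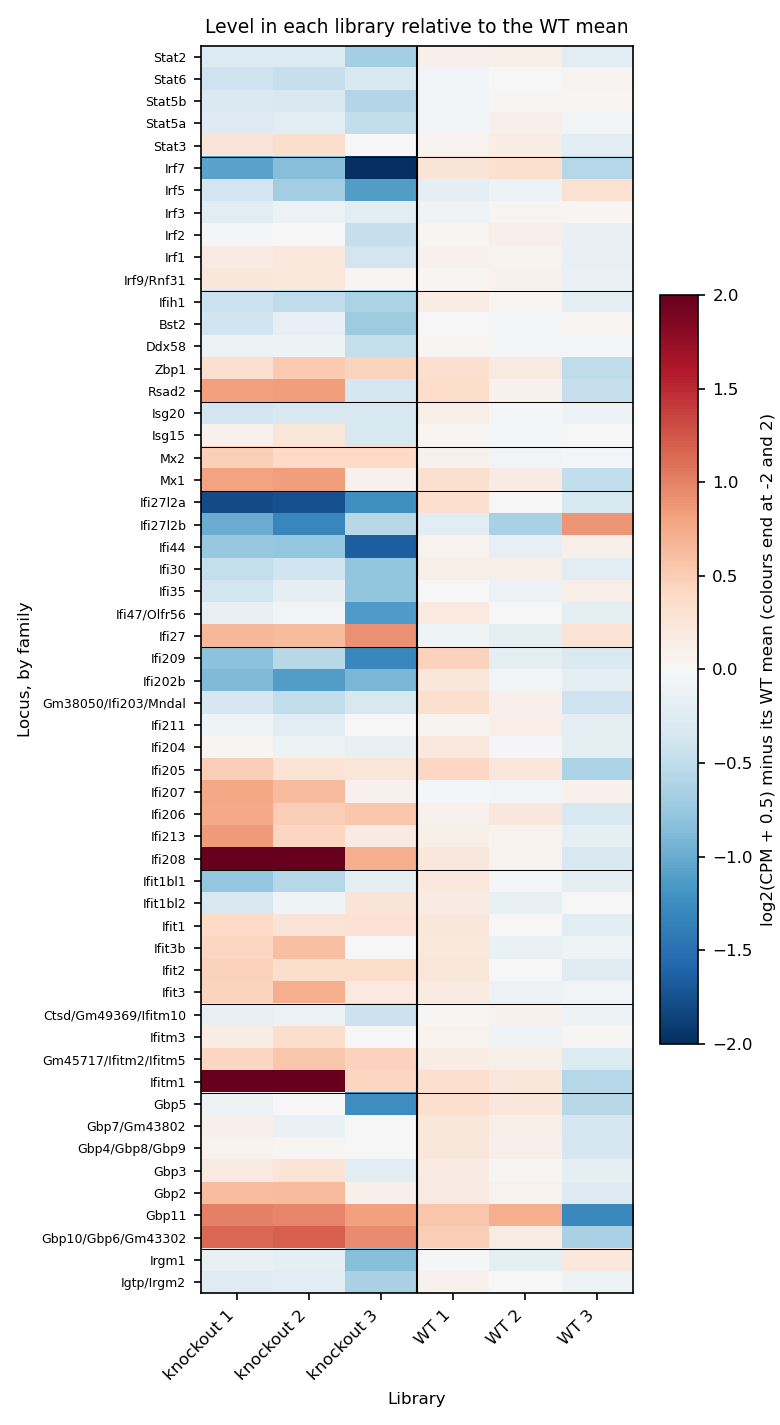
Level of 56 of the 58 tested loci (rows, by family) in each library (columns, knockout left of WT) as log2(CPM + 0.5) minus the mean of its WT libraries; blue is lower and red higher, and colours end at -2 and 2. The columns of knockout replicate 3 and WT replicate 3 are bluer than the other two of their genotype, and Irf7 and Ifi27l2a are blue in all 3 knockout columns.

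Levels between genes were compared per length, in the deposited FPKM. Although no interferon was named in the medium, 39 of the 64 members (60.9%) averaged at least 10 FPKM in the knockout and 39 in WT, where 14.5% of all named loci did so in the knockout and 14.7% in WT. Ifitm3, a membrane protein that blocks viral fusion, was the most abundant with 1611 ± 250.1 FPKM in the knockout and 1508 ± 64.2 FPKM in WT (SD, n = 3 each). Bst2 (tetherin), which holds budding virions at the cell surface, followed with 984 ± 209 FPKM in the knockout and 1370 ± 47.1 FPKM in WT. Ifi27l2a, an interferon-induced gene for a small hydrophobic protein, had 237 ± 37.9 FPKM in the knockout and 785 ± 156 FPKM in WT. The locus shared by Ctsd and Ifitm10 had 623 ± 77.1 FPKM in the knockout and 755 ± 43.1 FPKM in WT; Ctsd encodes the lysosomal protease cathepsin D, and the value cannot be assigned to Ifitm10. Isg15, a ubiquitin-like modifier, had 529 ± 119 FPKM in the knockout and 547 ± 7.94 FPKM in WT. In the WT order Ifi27l2a and the Ctsd locus differed by less than the SD of Ifi27l2a, while the other neighbours among these 5 differed by more than the SD of either. The 6 loci below the filter were nearly silent in both genotypes: their highest mean was that of Ifitm6, at 0.165 CPM in the knockout and 0.0999 CPM in WT, and Ifitm7 was at 0 CPM in all 6 libraries. Irf4 averaged 0.0282 CPM in the knockout and 0.0278 CPM in WT. Irf4 is a factor of lymphoid and myeloid cells.

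The ISRE was searched for as GAAANNGAAA and the GAS as TTCNNNGAA, on both strands and allowing matches to overlap, in the 300 bases around the gene start (250 before, 50 after) that RefSeq gives on build GRCm38.p6. A window was found for 55 of the 70 member symbols. An ISRE match was in at least 1 window of 31 of these 55 genes (56.4%), against 3.99% of all 27025 genes with a window, and a GAS match in 13 (23.6%, against 9.55%). Counted per window, the ISRE matches numbered 43, of which 38 lay before the start, 32 of them within 150 bases of it. The windows of Ifit1 and Ifit1bl2 overlap on opposite strands, so the same 2 matches were counted for both genes. The stretches below are shown because they carry the ISRE letters. They come from an abundant gene (Isg15), from the IFIT family (Ifit1, Ifit3 and Ifit3b), from a guanylate-binding protein gene (Gbp2) and from both loci that rose with a match (Ifi208 and Ifitm2). Each is read 5′ to 3′ on the gene's strand, with ISRE letters, or their reverse complement, in capitals.
Isg15 (chr4:156200826-156200945, minus strand): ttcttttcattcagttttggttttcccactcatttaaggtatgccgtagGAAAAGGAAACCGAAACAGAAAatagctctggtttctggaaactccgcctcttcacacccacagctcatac
Ifit1 (chr19:34640739-34640858, plus strand): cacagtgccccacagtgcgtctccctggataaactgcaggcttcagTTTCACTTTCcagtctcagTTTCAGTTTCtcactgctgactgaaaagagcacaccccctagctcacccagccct
Ifit3 (chr19:34583335-34583454, plus strand): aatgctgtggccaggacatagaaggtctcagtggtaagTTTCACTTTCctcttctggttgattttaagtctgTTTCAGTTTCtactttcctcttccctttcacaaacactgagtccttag
Ifit3b (chr19:34607731-34607850, plus strand): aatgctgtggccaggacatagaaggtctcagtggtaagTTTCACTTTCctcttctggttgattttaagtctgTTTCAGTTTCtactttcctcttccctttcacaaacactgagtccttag
Gbp2 (chr3:142620543-142620662, plus strand): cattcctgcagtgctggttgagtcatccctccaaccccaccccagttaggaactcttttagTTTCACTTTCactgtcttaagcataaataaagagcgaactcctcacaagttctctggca
Ifi208 (chr1:173673545-173673664, plus strand): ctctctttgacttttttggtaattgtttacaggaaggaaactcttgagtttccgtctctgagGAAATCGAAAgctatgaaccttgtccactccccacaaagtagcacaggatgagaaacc
Ifitm2 (chr7:140955962-140956081, minus strand): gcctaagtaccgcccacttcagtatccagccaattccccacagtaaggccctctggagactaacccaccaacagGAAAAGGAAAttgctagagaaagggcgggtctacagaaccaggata
In Isg15 the run of capitals holds 3 overlapping matches, starting 78, 72 and 66 bases before the gene start. Ifit1 and Ifit3 hold a pair of matches each. The stretches of Ifit3 and Ifit3b had the same base at 120 of 120 positions. These matches are letters in a window, not shown sites of binding.

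Among loci with an ISRE match 28 were tested, 1 of which fell (Ifih1, whose match starts 32 bases after the gene start) and 2 rose (Ifi208 and the Ifitm2 locus), with a median log2 fold change of -0.00. Over all tested loci 8.08% fell and 8.03% rose. Of 19 tested loci with windows but no match, 6 fell (Irf7, Ifi44, Ifi202b, Ifi30, Stat6 and Stat5b) and 1 rose (Ifitm1), with a median of -0.38. All 3 knockout libraries lay below WT at 6 of the 28 loci with a match and at 13 of the 19 without one, against 18.4% of all tested loci. All 3 lay above WT at 6 and at 2 loci of these sets, against 19.2% of all tested loci. In 11 tested loci no member had a window, and there 1 fell (Ifi27l2a) and 3 rose (Ifi27, Mx2 and the Gbp6 and Gbp10 locus), with a median of 0.43. No match says only that these letters are not in this window. Of the loci that fell, a GAS match was found in the window of Ifi202b alone. The difference between loci with and without a match was not tested.

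**Figure D3:**
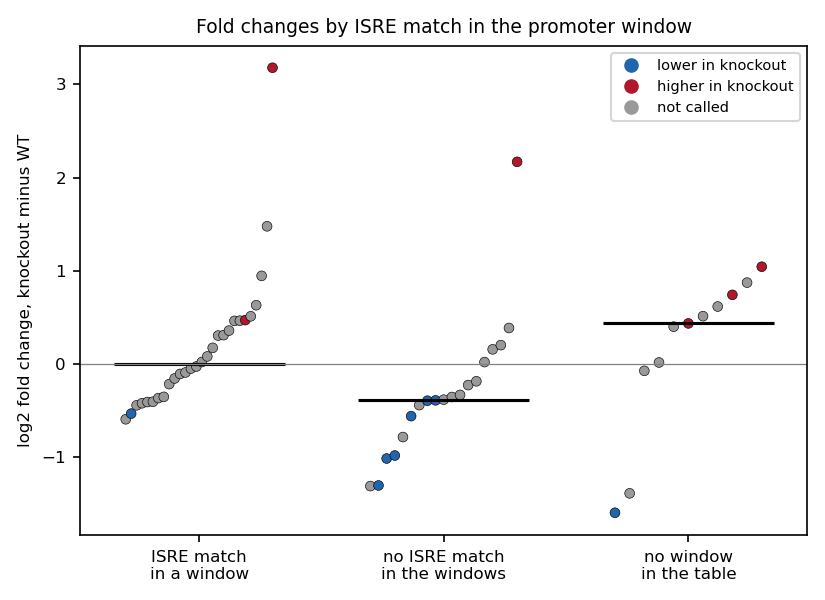
Log2 fold change (Fbxw7 knockout minus WT) of each tested locus, grouped by whether the letters GAAANNGAAA occur in a promoter window; each point is a locus and the black lines are medians. The medians are -0.00 with a match, -0.38 without one and 0.43 where no window was in the table.

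Interferon genes themselves were almost silent. The summed level of 10 interferon ligand loci was 0.171 to 0.292 CPM in the knockout libraries and 0.0672 to 0.294 CPM in the WT libraries, and 4 loci were at 0 throughout. Only Ifnb1 (interferon beta) reached the test, with 0.257, 0.202 and 0.102 CPM in the knockout and 0.0504, 0.0664 and 0.245 CPM in WT. The groups overlapped, and its log2 fold change of 0.62 ± 0.66 (SE, edgeR adjusted p = 0.57) was not past the threshold. For Ifnb1 the value turned on replicate 3: without WT replicate 3 the log2 fold change was 1.64 (edgeR adjusted p = 0.124), and without replicate 3 of both genotypes it was 1.93, past the threshold. With replicates 1 and 2 summed the log2 fold change of Ifnb1 was 0.29, not past the threshold.

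Among interferon receptors and JAK kinases, 2 of 8 tested loci fell and 2 rose, against 8.08% lower and 8.03% higher of all tested loci. The subunits of the interferon gamma receptor fell: Ifngr1 had 76.5, 82.6 and 77.1 CPM in the knockout, against 115, 109 and 107 CPM in WT, a log2 fold change of -0.49 ± 0.08 (SE, edgeR adjusted p = 0.00792). Ifngr2 had 112, 117 and 111 CPM in the knockout, against 157, 151 and 149 CPM in WT (-0.43 ± 0.08, edgeR adjusted p = 0.0119). Among the kinase genes Jak1 and Jak2 rose. Jak1, used by both interferon types, had 569, 546 and 330 CPM in the knockout, against 254, 255 and 241 CPM in WT (0.95 ± 0.20, edgeR adjusted p = 0.0173), with replicate 3 lowest of the knockout. Jak2, used by the interferon gamma receptor, had 113, 103 and 111 CPM in the knockout, against 78.3, 80.2 and 61.4 CPM in WT (0.57 ± 0.12, edgeR adjusted p = 0.0174). The groups were separate at all 4 genes. Tyk2, the kinase of the type I receptor, chosen after its values were seen, had 29.0, 30.7 and 25.4 CPM in the knockout and 32.4, 37.1 and 30.0 CPM in WT, with overlap (-0.23 ± 0.12, edgeR adjusted p = 0.246). Left-out libraries changed the list's counts: without knockout replicate 1 they were 0 lower and 0 higher (edgeR; 2 lower and 2 higher at an unadjusted p under 0.05), without knockout replicate 2 2 lower and 1 higher, without WT replicate 1 1 lower and 0 higher (2 higher unadjusted), and without WT replicate 2 2 lower and 1 higher.

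Of the STAT genes, 2 of 6 tested loci fell and 0 rose, against 8.08% lower and 8.03% higher of all tested loci (edgeR; 4 lower and 0 higher at an unadjusted p under 0.05; 2 lower and 0 higher by DESeq2). Stat6, the transducer of interleukin 4 and interleukin 13 signals (chromosome 10, 127642986 to 127660957, plus strand, mm10), had 106, 102 and 114 CPM in the knockout libraries and 135, 142 and 147 CPM in the WT libraries. All knockout values were below all WT values. The log2 fold change was -0.40 ± 0.09 (SE, 95% interval -0.60 to -0.19, edgeR adjusted p = 0.0215). Stat5b, which carries growth hormone and cytokine signals (chromosome 11, 100780731 to 100850724, minus strand), had 35.6, 35.3 and 28.8 CPM in the knockout and 42.0, 44.4 and 44.4 CPM in WT, again without overlap. Its log2 fold change was -0.39 ± 0.11 (95% interval -0.64 to -0.14, edgeR adjusted p = 0.0474). Neither call was firm: that of Stat6 was lost without knockout replicate 1 or 2 or WT replicate 1 or 2 (edgeR adjusted p = 0.0631 to 0.108), and that of Stat5b without any 1 of the 6 libraries (edgeR adjusted p = 0.0502 to 0.141). Scaling by library size alone called 0 STAT loci (edgeR; 2 lower at an unadjusted p under 0.05).

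Stat2, Stat3 and Stat5a were not past the threshold. Without replicate 3 of both genotypes 4 STAT loci were lower and 0 higher (edgeR; 1 higher at an unadjusted p under 0.05), among them Stat2 (-0.38, edgeR adjusted p = 0.000614) and Stat5a (-0.28, edgeR adjusted p = 0.0436). In that setting 41.3% of all loci were called. With replicates 1 and 2 summed, Stat2 was at -0.42 (edgeR adjusted p = 0.371) and Stat5a at -0.36 (edgeR adjusted p = 0.379). Stat2, specific to type I and type III interferon, had 380, 378 and 286 CPM in the knockout and 490, 499 and 395 CPM in WT (log2 fold change -0.41 ± 0.15 SE, edgeR adjusted p = 0.107); replicate 3 was the lowest of each group, and the groups did not overlap. Stat5a had 15.9 ± 1.59 CPM in the knockout and 19.98 ± 1.25 CPM in WT (SD, n = 3 each; -0.33 ± 0.12, edgeR adjusted p = 0.101). Stat3, the main STAT of interleukin 6 signalling, overlapped between genotypes, with 248 ± 30.8 CPM in the knockout and 215 ± 28.6 CPM in WT (0.20 ± 0.14, edgeR adjusted p = 0.362). Stat3 and Stat5a overlap on opposite strands, and no source used here says if reads were counted by strand. Both were chosen after their values were seen.

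Of the IRF genes, 1 of 7 tested loci fell and 0 rose, against 8.08% lower and 8.03% higher of all tested loci (edgeR; 2 lower and 1 higher at an unadjusted p under 0.05, and 2 lower and 1 higher past the threshold by DESeq2). Irf7, which is itself induced by interferon and switches on interferon genes (chromosome 7, 141262706 to 141266481, minus strand), had 137, 160 and 68.2 CPM in the knockout and 347, 360 and 195 CPM in WT. Every knockout library was below every WT library, but within each genotype replicate 3 was far below the other two. The log2 fold change was -1.31 ± 0.34 (SE, 95% interval -2.09 to -0.52, edgeR adjusted p = 0.0381). Its size was kept without replicate 3 of both genotypes, at -1.25 (edgeR adjusted p = 4.69e-09), a setting in which 41.3% of all loci were called. With replicates 1 and 2 summed the log2 fold change was -1.34 and not past the threshold (edgeR adjusted p = 0.225). The call was lost without any 1 library other than WT replicate 3 (edgeR adjusted p = 0.0559 to 0.125). Over all 19 alternatives the log2 fold change was -1.55 to -1.02.

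No other IRF locus passed. The locus of Irf9, the DNA-binding subunit of the complex that reads the ISRE, and of Rnf31 had 186, 185 and 163 CPM in the knockout and 164, 169 and 146 CPM in WT (log2 fold change 0.16 ± 0.10 SE, edgeR adjusted p = 0.341). Irf2, which can repress interferon targets, had 45.7, 46.6 and 33.7 CPM in the knockout and 48.0, 50.1 and 42.2 CPM in WT (-0.16 ± 0.14, edgeR adjusted p = 0.503). Both overlapped between genotypes. Irf1, Irf3 and Irf5 were chosen after their values were seen. Irf3, the constitutive factor that starts interferon beta transcription, had 29.8 ± 1.1 CPM in the knockout and 33.9 ± 1.31 CPM in WT (SD, n = 3 each; -0.19 ± 0.09, edgeR adjusted p = 0.202). Irf1, an inducible activator, had 47.0 ± 10.1 CPM in the knockout and 46.3 ± 4.17 CPM in WT (0.02 ± 0.17, edgeR adjusted p = 0.951). Irf5, best known from macrophages and dendritic cells, had 4.75, 3.73 and 2.66 CPM in the knockout and 5.48, 5.84 and 7.90 CPM in WT (-0.79 ± 0.25, edgeR adjusted p = 0.07). Its groups did not overlap. The leukocyte marker sum, of which Lyz2 was the largest part, was also lower in all 3 knockout libraries. Of the 5 leukocyte markers tested, 2 were below 0 and 3 above. The part of leukocytes in the Irf5 values was not tested.

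Of the single sensors and effectors 1 of 5 fell, against 8.08% of all tested loci. Ifih1 (MDA5), a sensor of long double-stranded RNA (chromosome 2, 62595798 to 62646255, minus strand), had 57.8, 55.1 and 50.2 CPM in the knockout and 86.7, 80.2 and 69.3 CPM in WT. The groups did not overlap, and the log2 fold change was -0.53 ± 0.11 (SE, 95% interval -0.79 to -0.28, edgeR adjusted p = 0.0172). Without knockout replicate 1 or 2, or WT replicate 1 or 2, the adjusted p was 0.0506 to 0.0715 and the call was lost. Ddx58 (RIG-I), the related sensor of RNA ends, had 178, 178 and 136 CPM in the knockout and 196, 187 and 188 CPM in WT (-0.22 ± 0.12, edgeR adjusted p = 0.265). Bst2 had 605, 711 and 489 CPM in the knockout and 794, 788 and 815 CPM in WT (-0.41 ± 0.14, edgeR adjusted p = 0.0945). All knockout values of Ddx58 and Bst2 were below WT, without passing the test. Zbp1 and Rsad2 were chosen after their values were seen. Zbp1, a sensor of Z-form nucleic acid, had 43.1 ± 3.01 CPM in the knockout and 32.7 ± 9.31 CPM in WT (SD, n = 3 each). Rsad2 (viperin) had 28.7 ± 11.4 CPM in the knockout and 20.1 ± 5.67 CPM in WT, and both genes overlapped between genotypes.

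Sensors and adaptors outside the symbol rule gave 2 lower and 0 higher of 14 tested (edgeR; 3 lower and 2 higher at an unadjusted p under 0.05; 3 lower and 0 higher by DESeq2). Among all tested loci 8.08% were lower and 8.03% higher by edgeR. Tlr3, the endosomal sensor of double-stranded RNA, had 20.001, 18.6 and 19.6 CPM in the knockout, against 38.4, 37.7 and 26.1 CPM in WT (log2 fold change -0.81 ± 0.16 SE, edgeR adjusted p = 0.0134). Tbk1, the kinase that activates IRF3 and IRF7, had 57.5, 57.9 and 58.7 CPM in the knockout, against 81.7, 73.8 and 79.9 CPM in WT (-0.44 ± 0.08, edgeR adjusted p = 0.0127). Neither gene overlapped between genotypes. The count of lower genes was 1 without knockout replicate 1, 1 without WT replicate 2 and 0 without WT replicate 1 (edgeR; 3 lower at an unadjusted p under 0.05).

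The largest decrease among the members was that of Ifi27l2a, and it lay next to an increase. On chromosome 12, Ifi27 (103434211 to 103440239, plus strand) and Ifi27l2a (103442167 to 103443680, minus strand) are neighbours in a 23 kb group of related genes. Ifi27l2a had 50.1, 51.1 and 74.2 CPM in the knockout and 220, 173 and 139 CPM in WT, and every knockout library was below every WT library. Its log2 fold change was -1.60 ± 0.21 (SE, 95% interval -2.09 to -1.11, edgeR adjusted p = 0.00299), and -1.96 without replicate 3 of both genotypes. Ifi27 had 47.8, 46.9 and 57.4 CPM in the knockout and 28.1, 26.6 and 36.2 CPM in WT, with no overlap the other way. It rose by 0.74 ± 0.15 (95% interval 0.40 to 1.08, edgeR adjusted p = 0.0138); without WT replicate 1 or 2 the adjusted p was 0.0639 and 0.0589. Ifi27l2b beside them, chosen after its values were seen, had 1.05 ± 0.402 CPM in the knockout and 2.75 ± 1.89 CPM in WT (SD, n = 3 each; -1.39 ± 0.50 SE, edgeR adjusted p = 0.103), with overlap. Reads shared between these related genes could move between them in the authors' estimate, which was not tested.

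Ifi44 and Ifi30 also fell. Ifi44, an interferon-induced gene named for its protein in microtubule-like aggregates (chromosome 3, 151730922 to 151749960, minus strand), had 48.0, 47.6 and 25.5 CPM in the knockout and 85.3, 72.4 and 87.3 CPM in WT. The groups were separate, with knockout replicate 3 lowest, and the log2 fold change was -1.02 ± 0.23 (SE, 95% interval -1.55 to -0.48, edgeR adjusted p = 0.0238). Leaving out replicate 3 of both genotypes gave -0.72, and the call was lost without knockout replicate 2, WT replicate 1 or WT replicate 2 (edgeR adjusted p = 0.0517 to 0.0834). Ifi30 (GILT), a lysosomal thiol reductase of antigen processing (chromosome 8, 70762774 to 70766663, minus strand, annotated here as a processed transcript), had 39.3, 41.2 and 31.4 CPM in the knockout and 59.3, 59.1 and 46.6 CPM in WT. Its groups were separate (-0.56 ± 0.14; 95% interval -0.89 to -0.23, edgeR adjusted p = 0.0352), but the call was lost without knockout replicate 1 or 2 or WT replicate 1 or 2 (edgeR adjusted p = 0.0538 to 0.125). Ifi30 is also a gene of antigen-presenting cells. The summed leukocyte markers given above, of which Lyz2 was the largest part, were lower in all 3 knockout libraries. Of the 5 leukocyte markers tested, 2 were below 0 and 3 above, with a median log2 fold change of 0.15. The part of leukocytes in the Ifi30 result was not tested. Ifi35 had 57.1, 65.3 and 43.4 CPM in the knockout and 74.4, 69.2 and 81.7 CPM in WT, separate but not past the threshold (-0.44 ± 0.15, edgeR adjusted p = 0.0913). The locus shared by Ifi47, an interferon-induced GTPase, and Olfr56, chosen after its values were seen, had 29.4 ± 10.6 CPM in the knockout and 38.4 ± 5.29 CPM in WT (SD, n = 3 each) with overlap.

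**Figure D4:**
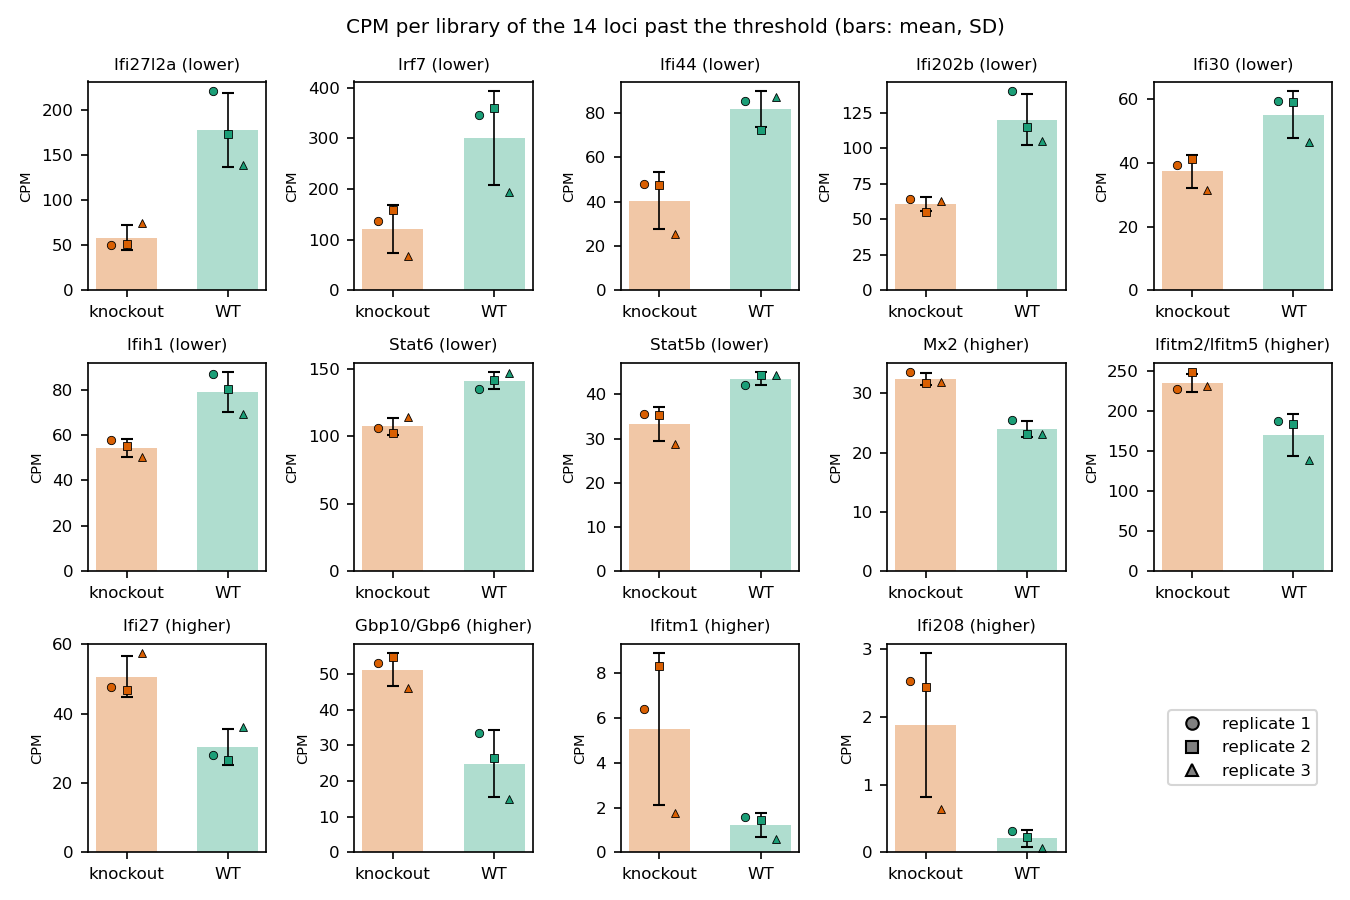
CPM of the 14 loci past the threshold, knockout left of WT; points are libraries, marked by replicate, bars are means and error bars SD over 3 libraries, and each axis starts at 0. No locus overlaps between genotypes, and replicate 3 is the lowest of both groups at Irf7, Ifitm1 and Ifi208, among others.

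The Ifi200 genes, which encode DNA-binding PYHIN proteins, lie in a group of 11 loci over 563 kb of chromosome 1, and held both directions: of 10 tested, 5 were below 0 and 5 above (4 and 6 under scaling by library size alone), 1 fell and 1 rose, against 8.08% lower and 8.03% higher of all tested loci. Leaving out knockout replicate 3 gave 1 lower and 2 higher Ifi200 loci (10.1% and 9.05% of all loci). Leaving out WT replicate 3 gave 2 and 1 (9.10% and 9.37% of all loci), and leaving out both gave 3 and 3 (20.6% and 20.7%). Without knockout replicate 1 or 2 or WT replicate 2, 0 were higher (edgeR; 1, 3 and 2 at an unadjusted p under 0.05). Ifi202b (173962568 to 173982744, minus strand), which in mice restrains the DNA sensor AIM2, had 64.1, 55.0 and 63.1 CPM in the knockout and 140, 115 and 106 CPM in WT. The groups were far apart, and the log2 fold change was -0.98 ± 0.13 (SE, 95% interval -1.28 to -0.69, edgeR adjusted p = 0.00277), or -1.10 without replicate 3 of both genotypes. Ifi208 (173673675 to 173698395, plus strand) was scarce in WT, with 2.54, 2.44 and 0.648 CPM in the knockout and 0.319, 0.232 and 0.0654 CPM in WT. Replicate 3 was the lowest of both groups, and the groups did not overlap. The increase was 3.18 ± 0.66 (95% interval 1.65 to 4.70, edgeR adjusted p = 0.017); the call was lost without knockout replicate 1 or 2 or WT replicate 2 (edgeR adjusted p = 0.0637 to 0.068).

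The other 8 tested loci of the Ifi200 group were not past the threshold. The locus shared by Ifi203 and Mndal had 124, 112 and 126 CPM in the knockout and 197, 169 and 118 CPM in WT (log2 fold change -0.42 ± 0.18 SE, edgeR adjusted p = 0.15), where only WT replicate 3 reached the knockout range. The other 7 tested members of the group were picked with their values known. Ifi204, in mice a factor in sensing of foreign DNA, had 67.6 ± 4.69 CPM in the knockout and 71.2 ± 9.74 CPM in WT (SD, n = 3 each). Ifi211 had 19.0 ± 1.35 CPM in the knockout and 20.5 ± 2.39 CPM in WT. Ifi205 had 4.37 ± 0.483 CPM in the knockout and 3.53 ± 1.36 CPM in WT, and all 3 of these genes overlapped between genotypes. Ifi209 had 0.720, 0.976 and 0.375 CPM in the knockout, below 2.47, 1.41 and 1.28 CPM in WT (-1.31 ± 0.41, edgeR adjusted p = 0.065). Ifi206 (0.95 ± 0.32, edgeR adjusted p = 0.0868) and Ifi213 (1.48 ± 0.55, edgeR adjusted p = 0.111) had all knockout libraries above WT. Ifi207 had 3.16 ± 0.861 CPM in the knockout and 2.04 ± 0.143 CPM in WT, with overlap. These genes are close copies of each other, so reads may have been shared in the authors' estimate; Ifi211 and Ifi203 also share a locus interval.

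**Figure D5:**
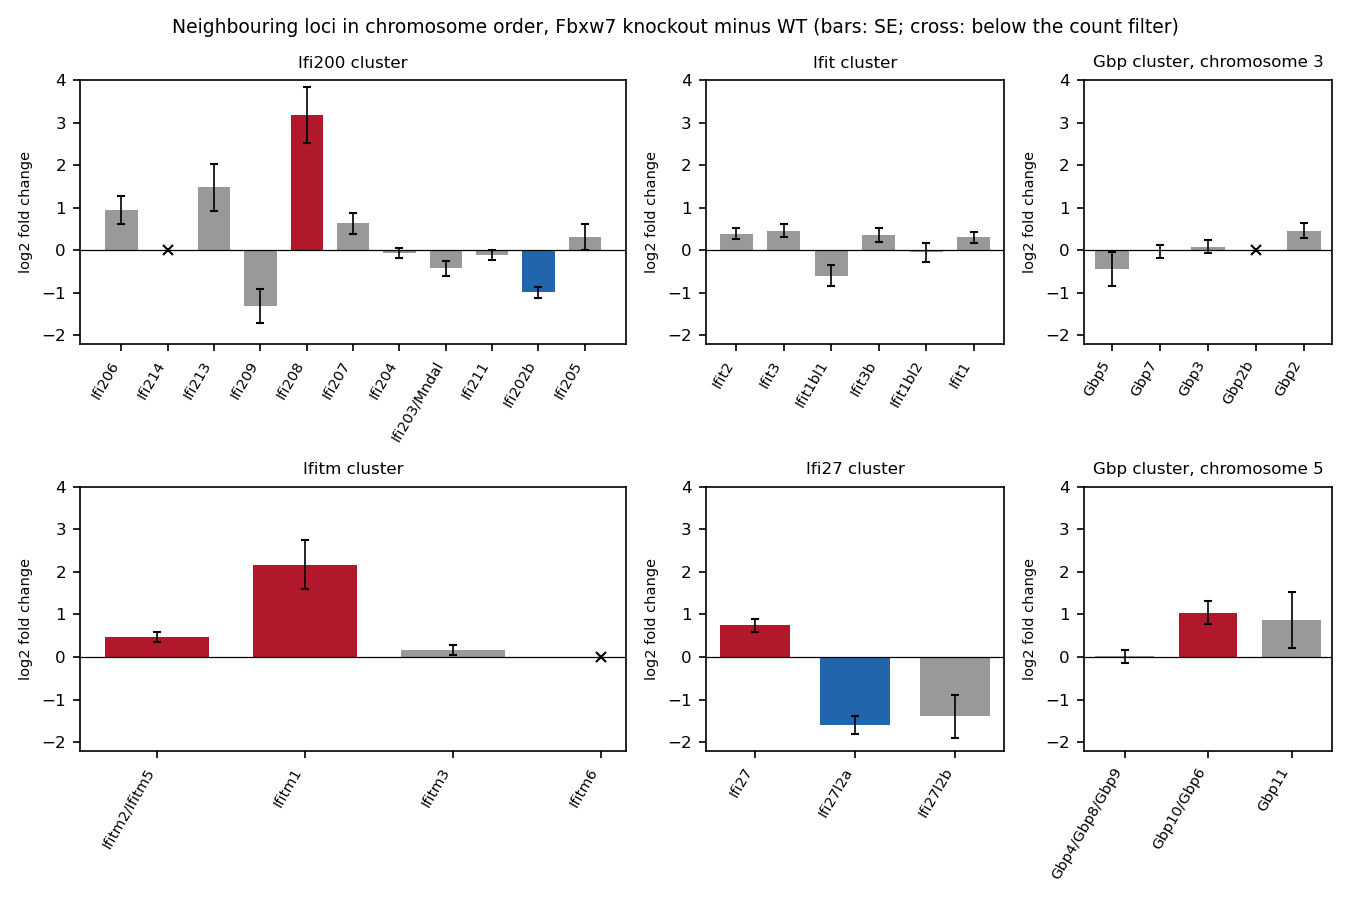
Log2 fold change (Fbxw7 knockout minus WT) of neighbouring loci in chromosome order, 1 panel per gene group; bars are estimates with standard errors, red rose, blue fell, grey was not past the threshold, and a cross is a locus below the count filter. Both directions occur along the Ifi200 group, Ifi27 and Ifi27l2a are opposite neighbours, and the tested loci of the Ifitm group are above 0.

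The IFIT genes, whose proteins bind foreign RNA and block its translation, form a group of 6 loci over 99 kb of chromosome 19. Among all tested loci 8.08% were lower and 8.03% higher. Of the IFIT loci 0 passed the threshold (edgeR; 1 lower and 3 higher at an unadjusted p under 0.05; 0 lower and 1 higher by DESeq2; 0 and 0 by limma on FPKM). Scaling by library size alone gave 0 lower and 2 higher (6.11% and 11.7% of all loci). Leaving out knockout replicate 3 gave 1 and 2 (10.1% and 9.05% of all loci). Leaving out replicate 3 of both genotypes gave 1 and 3 (20.6% and 20.7% of all loci). Ifit1 had 423, 383 and 394 CPM in the knockout and 375, 320 and 276 CPM in WT. Its groups did not overlap (log2 fold change 0.30 ± 0.13 SE; 95% interval 0.01 to 0.60, edgeR adjusted p = 0.15). Ifit3 had 358, 433 and 300 CPM in the knockout and 298, 243 and 252 CPM in WT, again separate (0.46 ± 0.15; 95% interval 0.11 to 0.82, edgeR adjusted p = 0.0802). The other four were chosen after their values were seen. Ifit2 had 183 ± 7.17 CPM in the knockout and 140 ± 23.8 CPM in WT (SD, n = 3 each; 0.39 ± 0.13, edgeR adjusted p = 0.0858), and Ifit3b had 75.4 ± 16.1 CPM in the knockout and 58.8 ± 7.79 CPM in WT (0.36 ± 0.17, edgeR adjusted p = 0.198). Ifit1bl1, with 1.97 ± 0.521 CPM in the knockout and 2.97 ± 0.481 CPM in WT, and Ifit1bl2, with 2.48 ± 0.608 CPM in the knockout and 2.57 ± 0.335 CPM in WT, were scarce. The 4 abundant IFIT genes all had estimates above 0, and none was past the threshold. Of these, Ifit1, Ifit3 and Ifit3b had ISRE matches, and Ifit2 had none in its windows. Ifit1bl1 (-0.59) and Ifit1bl2 (-0.05), with estimates below 0, also had matches.

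Isg15 did not differ detectably. It had 315, 353 and 237 CPM in the knockout and 307, 289 and 296 CPM in WT, and the knockout range enclosed the WT range. The log2 fold change was 0.02 ± 0.15 (SE, edgeR adjusted p = 0.942), with a 95% interval of -0.32 to 0.36. Isg20, an exonuclease gene, had 14.6, 15.3 and 15.4 CPM in the knockout and 21.0, 19.1 and 17.9 CPM in WT, separate and not past the threshold (-0.36 ± 0.11, edgeR adjusted p = 0.0661). Of both genes 0 passed (edgeR; 1 lower at an unadjusted p under 0.05), while 1 was lower by DESeq2, by limma on filtered FPKM and without WT replicate 3. In the main edgeR test 8.08% of all tested loci were lower and 8.03% higher.

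The Mx genes encode dynamin-like GTPases that trap viral components. Mx2 (chromosome 16, 97535308 to 97560900, plus strand, annotated as a polymorphic pseudogene) had 33.5, 31.7 and 31.8 CPM in the knockout and 25.5, 23.1 and 23.2 CPM in WT. The libraries of each genotype were close together and the groups separate, so the small increase of 0.43 ± 0.09 on the log2 scale passed (SE, 95% interval 0.22 to 0.65, edgeR adjusted p = 0.0205). It was lost without knockout replicate 1 or 2 or WT replicate 1 or 2 (edgeR adjusted p = 0.0566 to 0.109). Mx1 had 9.04, 9.28 and 5.29 CPM in the knockout and 6.35, 5.64 and 3.42 CPM in WT, with overlap (0.62 ± 0.29, edgeR adjusted p = 0.196).

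Of the IFITM genes, whose small membrane proteins hinder virus entry, 2 of 4 tested loci rose and 0 fell, against 8.08% lower and 8.03% higher of all tested loci (edgeR; 0 lower at an unadjusted p under 0.05 and by DESeq2). Ifitm1 (chromosome 7, 140967221 to 140969825, plus strand) had 6.42, 8.33 and 1.74 CPM in the knockout and 1.60, 1.44 and 0.621 CPM in WT. Knockout replicate 3 was only just above WT replicate 1, and replicate 3 was the lowest of both groups. The log2 fold change was 2.17 ± 0.58 (SE, 95% interval 0.82 to 3.52, edgeR adjusted p = 0.0415), and of the left-out libraries the call outlasted only the loss of knockout replicate 3 (edgeR adjusted p = 0.0854 to 0.138 otherwise). Ifitm2 (140954837 to 140955987, minus strand) shares its locus with Ifitm5, and this locus had 227, 248 and 231 CPM in the knockout and 187, 183 and 139 CPM in WT. The groups were separate, at 0.47 ± 0.13 (95% interval 0.17 to 0.77, edgeR adjusted p = 0.0446), and the call was lost without knockout replicate 1 or 2 or WT replicate 1 or 2 (edgeR adjusted p = 0.0783 to 0.122). Ifitm3, next to Ifitm1 in the 69 kb group, had 763, 881 and 693 CPM in the knockout and 723, 649 and 702 CPM in WT, with overlap (0.17 ± 0.12, edgeR adjusted p = 0.376). The locus of Ctsd and Ifitm10, outside that group, had 1360, 1399 and 1126 CPM in the knockout and 1539, 1603 and 1407 CPM in WT (-0.23 ± 0.12, edgeR adjusted p = 0.257).

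The guanylate-binding proteins (GBPs) are large GTPases, induced mainly by interferon gamma, that attack the membranes around intracellular pathogens. Among all tested loci 8.08% were lower and 8.03% higher. Of 7 tested GBP loci 1 rose and 0 fell (edgeR; 0 lower at an unadjusted p under 0.05 and by DESeq2). The one that rose is shared by Gbp6 and Gbp10 (chromosome 5, 105215699 to 105293698 over both genes, minus strand), and had 53.0, 54.7 and 46.2 CPM in the knockout and 33.5, 26.4 and 14.9 CPM in WT. All knockout values were above all WT values, among which WT replicate 3 was the lowest. The increase was 1.04 ± 0.26 on the log2 scale (SE, 95% interval 0.44 to 1.65, edgeR adjusted p = 0.0336); the call was lost without any 1 knockout library or WT replicate 2 (edgeR adjusted p = 0.068 to 0.105). Gbp3 had 95.5, 102 and 71.8 CPM in the knockout and 95.1, 86.4 and 73.5 CPM in WT, with overlap (0.08 ± 0.15, edgeR adjusted p = 0.767). Gbp2 had 95.2, 96.8 and 66.5 CPM in the knockout and 70.6, 65.4 and 51.5 CPM in WT, where knockout replicate 3 lay within the WT range (0.46 ± 0.17, edgeR adjusted p = 0.114). The rest were chosen after their values were seen. Gbp11 had 2.78 ± 0.224 CPM in the knockout and 1.52 ± 1.16 CPM in WT (SD, n = 3 each), of which WT replicate 3 held 0.196 CPM. Gbp5 had 3.66 ± 1.67 CPM in the knockout and 4.98 ± 1.64 CPM in WT. The locus of Gbp7 and Gm43802 had 43.9 ± 3.49 CPM in the knockout and 44.8 ± 8.88 CPM in WT, and the locus of Gbp4, Gbp8 and Gbp9 had 47.2 ± 1.1 CPM in the knockout and 46.7 ± 9.24 CPM in WT. These 3 loci overlapped between genotypes.

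The immunity-related GTPases, which also act on pathogen vacuoles, gave 0 calls in 2 tested loci (edgeR; 1 lower and 0 higher at an unadjusted p under 0.05; 0 by DESeq2). Among all tested loci 8.08% were lower and 8.03% higher by edgeR. Irgm1 had 412, 405 and 254 CPM in the knockout and 450, 403 and 529 CPM in WT, with overlap (log2 fold change -0.37 ± 0.20 SE, edgeR adjusted p = 0.252). The locus of Igtp and Irgm2 had 155, 158 and 117 CPM in the knockout and 194, 184 and 170 CPM in WT, without overlap (-0.35 ± 0.13, edgeR adjusted p = 0.11).

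Negative regulators of the pathway gave 1 lower and 1 higher of 14 tested, against 8.08% lower and 8.03% higher of all tested loci. Socs3, an inhibitor of JAK kinases that is itself a STAT3 target, rose: it had 36.9, 40.2 and 21.4 CPM in the knockout, against 9.23, 11.02 and 8.50 CPM in WT (log2 fold change 1.78 ± 0.24 SE, edgeR adjusted p = 0.00324). Cish, a feedback inhibitor of STAT5 signalling, fell: it had 16.6, 18.5 and 10.5 CPM in the knockout, against 33.4, 37.5 and 23.1 CPM in WT (-1.04 ± 0.25, edgeR adjusted p = 0.0281), with replicate 3 lowest in both. Both genes were separate between genotypes. The call of Cish was lost without knockout replicate 1, WT replicate 1 or WT replicate 2, where 0 regulators were lower (edgeR, 2 at an unadjusted p under 0.05). Without knockout replicate 3 or WT replicate 3, 2 were lower (10.1% and 9.10% of all loci). With replicates 1 and 2 summed the calls of Socs3 and Cish were both lost. There 0 regulators were lower and 0 higher (edgeR, 1 and 1 at an unadjusted p under 0.05), beside 1.11% and 1.57% of all loci.

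Interferon-stimulated genes outside the symbol rule fell more often than they rose. Of 50 tested, 10 fell (20%, against 8.08% of all loci) and 3 rose (6%, against 8.03%), with a median log2 fold change of -0.21. Leaving out WT replicate 2 gave 6 lower and 1 higher (3.76% and 3.63% of all loci). Leaving out knockout replicate 3 gave 14 and 5 (10.1% and 9.05% of all loci). Leaving out replicate 3 of both genotypes gave 19 and 5 (20.6% and 20.7% of all loci). With replicates 1 and 2 summed 2 were lower and 1 higher (edgeR, 10 and 3 at an unadjusted p under 0.05). There 1.11% of all loci were lower and 1.57% higher. Gvin1, a very large interferon-induced GTPase, had 0.841, 0.555 and 0.529 CPM in the knockout, against 5.68, 5.04 and 5.199 CPM in WT (-3.04 ± 0.23 SE, edgeR adjusted p = 0.00033). Nlrc5, the activator of MHC class I genes, had 28.3, 27.3 and 29.8 CPM in the knockout, against 53.4, 59.6 and 67.1 CPM in WT (-1.08 ± 0.11, edgeR adjusted p = 0.00103). The chemokine gene Ccl5 had 7.80, 9.81 and 6.42 CPM in the knockout, against 17.0, 16.8 and 17.7 CPM in WT (-1.10 ± 0.17, edgeR adjusted p = 0.00506). Slfn8, of the Schlafen family, rose to 52.9, 53.5 and 45.3 CPM in the knockout, against 23.3, 19.2 and 17.1 CPM in WT (1.35 ± 0.14, edgeR adjusted p = 0.00108). Cxcl10, a chemokine induced by interferon gamma and by NF-kB, chosen after its values were seen, rose to 183, 198 and 63.7 CPM in the knockout, against 33.8, 30.0 and 37.3 CPM in WT (2.14 ± 0.38, edgeR adjusted p = 0.00981). All of these were separate between genotypes.

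In the list of OAS genes, whose enzymes sense double-stranded RNA, 6 of 9 tested genes fell and 0 rose, against 8.08% lower and 8.03% higher of all tested loci (edgeR; 0 higher at an unadjusted p under 0.05 and by DESeq2). With replicates 1 and 2 summed 3 OAS genes were lower, and 4 without knockout replicate 1, WT replicate 1 or WT replicate 2. Oas3 had 1.81 ± 0.421 CPM in the knockout and 49.8 ± 8.94 CPM in WT, a log2 fold change of -4.78 ± 0.22 (SD, n = 3 each; SE for the fold change; edgeR adjusted p = 3.23e-05). Oas1g fell to 1.46 ± 0.295 CPM in the knockout, against 6.70 ± 1.05 CPM in WT (-2.19 ± 0.22, edgeR adjusted p = 0.000863), and Oas2 to 21.9 ± 6.23 CPM in the knockout, against 48.1 ± 3.96 CPM in WT (-1.13 ± 0.21, edgeR adjusted p = 0.0109). Neither the difference between these lists and the members nor a cause for it was tested.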

How the data were processed

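Total RNA for the 6 MEF libraries was extracted with Trizol and RNeasy and made into Illumina TruSeq libraries, per the labels' protocols. The submitters' processing notes name TopHat2 2.1.1, SAMtools 1.5, deepTools, Cufflinks 2.2.1 and build mm10, without their roles or settings, and no source used here says if strand was used in counting. The authors deposited estimated counts of fragments per locus, which are expected counts scaled between libraries, and FPKM per locus with variances and confidence bounds (30 columns not used here). The main design assumed raw counts, so the estimated counts were rounded to whole numbers first. Of 53323 loci, 1317 without a name and those marked HIDATA (12, of which 9 named) were left out. The others were filtered with edgeR's filterByExpr, scaled with TMM and compared by genotype with edgeR 4.0.16 (quasi-likelihood F test, Benjamini-Hochberg adjustment over 16787 loci, threshold 0.05) in R 4.3.3. DESeq2 1.42.0, limma 3.58.1 on log2(FPKM + 1) of loci averaging at least 1 FPKM, other scalings and filters, and left-out libraries were alternatives. The procedure was tested on simulated data, with libraries drawn independently. It recovered 22% of 50 loci changed 1.5-fold, 68% of 50 changed 2-fold, 88% at 4-fold and 96% at 8-fold. There were 17 false calls among 16787 simulated loci. A locus not past the threshold is thus not shown to be unchanged. Promoter windows came from RefSeq (GRCm38.p6), gene positions from GENCODE on mm10.

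The members, gene lists and tests were chosen with earlier results of these data known. Genes were named by rule: all members past the threshold, the 2 most abundant others of each family, members below the filter, and in each list up to 4 genes past the threshold with the smallest adjusted p (the 2 most abundant where none passed). The remaining members, Cxcl10, the Y-linked genes and the single cell type markers were chosen after their values were seen. Totals of 55720129 to 64198455 estimated fragments limit precision at low levels: Ifi208 rested on at most 18.9 fragments in a WT library. Loci shared by several genes, and close paralogs, hold reads that cannot be assigned with certainty. Values of 3 loci named by the rules or in the families are not reported here, although the counts include them.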

Additional observations from a re-analysis of the deposited data

How the results depend on the processing

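Leaving out 1 library at a time gave 2 to 10 members lower and 0 to 9 higher, against 8 and 6. The shares of all loci moved too, at 3.27% to 10.1% lower and 3.51% to 9.37% higher. Without replicate 3 of both genotypes 20 members were lower and 15 higher (20.6% and 20.7% of all loci). With replicates 1 and 2 summed 2 members were lower and 0 higher (edgeR; 12 and 8 at an unadjusted p under 0.05), where 1.11% and 1.57% of all loci were called. DESeq2 called 13 members lower (11.3% of all loci). Limma called 1 member higher with a pseudocount of 1 or 0.1 FPKM (4.46% and 4.61% of all loci). Without its filter limma called 2 lower and 0 higher (18 and 10 unadjusted), where 2.37% of all loci were lower and 1.91% higher. The cause was not tested, beyond the smaller number of libraries where some were left out. Upper-quartile factors, DESeq2 size factors, no count filter, the CPM filter and division by each library's step moved neither count by over 1.5 times. All 14 loci past the threshold kept their direction in every alternative that tested them.

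Values near 0 changed sign. Gbp3 was at -0.0257 without knockout replicate 2 and -0.0164 without WT replicate 3. Isg15 was at -0.11 to 0.16 with 1 library left out (-0.0157 without knockout replicate 1, -0.00155 without WT replicate 2), -0.0593 with replicates summed, -0.0737 with limma at a pseudocount of 1, with or without its filter, and -0.0739 at 0.1. None of these was past the threshold.

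Over 10056 loci, deviations of same-numbered libraries correlated at 0.0375, 0.214 and 0.123, and those of differently numbered libraries at -0.257 to 0.223. These values do not settle whether the replicate numbers pair the samples. The members themselves were lower in replicate 3 of both genotypes. A replicate block gave 9 members lower and 7 higher, where 7.26% of all loci were lower and 6.78% higher. Library size alone moved the median of all loci to 0.10, against 0.01 (log2), so changes under it are relative to that shift.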
